A study of Mus musculus with 39 samples.

Results

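Control-only H3K27me3 regions are stretches of the mouse genome that carried a deposited H3K27me3 peak in both control libraries of cKIT+ spermatogonia and in none of the 3 libraries labelled as Kdm6a knockout. They were selected on those peak calls: the peaks of the 5 lists were merged, and a merged region was kept when a peak of each control list and of no knockout list touched it by at least 1 bp. The rule kept 874 of 23569 merged regions (3.71%), which are described here by what the lists hold and tested only in measurements the rule did not use. The study examined the loss of KDM6A in male germ cells of the mouse. Control males carried the genotype Kdm6a fl/y; Cre-, and conditional knockout (cKO) males Kdm6a fl/y; Ddx4-Cre+, so that every animal had the floxed allele and the recombinase followed the germ-cell gene Ddx4. CUT&Tag for H3K27me3 (2 control and 3 cKO libraries), CUT&Tag with IgG (1 control library) and ATAC-seq (2 control and 3 cKO libraries) were made from cKIT+ cells sorted from testis, and single-cell RNA-seq (1 library of each genotype) from whole testis. No RNA of the sorted cells was used here, so their label was not checked against markers. Coordinates are 1-based on mm10. The labels used here give no age or strain, and they do not say that the libraries of a genotype came from separate animals, so p-values measure only the spread between these samples.

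H3K27me3, the trimethylated form of lysine 27 of histone H3, is written by the Polycomb repressive complex with EZH1 or EZH2 and is a mark of silent or weakly expressed genes, many of them developmental regulators. KDM6A, also called UTX, is an X-linked demethylase that removes it. In the germ line the mark also covers genes of somatic lineages.

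Promoter and miRNA sequences are shown first, as examples from the minority of control-only regions that held such a site. Gene starts lay in 108 of the 854 regions on chromosomes with RefSeq starts, and miRNA hairpins in 3 of the 874. The first set holds 150 bases just before the RefSeq start (GRCm38.p6) of 6 genes that start in a control-only region, 5′ to 3′ on the gene's strand, with every CG in capitals. They were picked as examples and leave out starts with CG counts near the median of the set. They are CG-rich starts of a choline transporter family gene (Slc44a5, chr3:153973286-153973435, plus strand), an orphan G-protein-coupled receptor (Gpr176, chr2:118373420-118373569, minus strand), a GABA receptor subunit on the X chromosome (Gabrq, chrX:72825028-72825177, plus strand), the developmental transcription factor Sox11 (chr12:27342719-27342868, minus strand) and the membrane trafficking gene with the strongest ATAC peaks (Yif1a, chr19:5088388-5088537, plus strand), and 1 start with no CG, that of the beta-defensin gene Defb22 (chr2:152490139-152490288, minus strand).
Slc44a5: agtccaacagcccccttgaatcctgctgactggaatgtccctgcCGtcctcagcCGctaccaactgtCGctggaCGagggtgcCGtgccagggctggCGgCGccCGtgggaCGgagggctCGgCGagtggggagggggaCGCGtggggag
Gpr176: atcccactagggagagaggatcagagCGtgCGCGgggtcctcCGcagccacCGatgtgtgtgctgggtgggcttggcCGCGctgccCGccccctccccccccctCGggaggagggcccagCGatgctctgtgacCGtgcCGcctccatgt
Gabrq: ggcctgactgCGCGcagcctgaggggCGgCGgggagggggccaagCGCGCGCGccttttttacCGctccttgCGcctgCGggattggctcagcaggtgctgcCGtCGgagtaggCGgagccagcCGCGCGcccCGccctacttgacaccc
Sox11: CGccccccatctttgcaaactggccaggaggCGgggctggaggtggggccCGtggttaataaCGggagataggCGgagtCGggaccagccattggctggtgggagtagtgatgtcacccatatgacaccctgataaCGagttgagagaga
Yif1a: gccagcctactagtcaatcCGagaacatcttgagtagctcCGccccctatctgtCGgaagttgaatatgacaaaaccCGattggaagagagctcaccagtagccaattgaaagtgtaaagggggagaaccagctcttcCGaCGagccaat
Defb22: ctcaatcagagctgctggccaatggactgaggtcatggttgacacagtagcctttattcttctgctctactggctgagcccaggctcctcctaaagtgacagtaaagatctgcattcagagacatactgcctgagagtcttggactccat

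The only motif searched was CG, which reads the same on both strands, in 300 bases from 250 before to 50 after each start. A CG count of 10 or more was found for 43.3% of the 127 starts in control-only regions, 48.9% of the 4801 starts in any merged region, 56.8% of the 2383 starts in regions of all 5 lists and 43.5% of all 32851 promoters in the table. The median CG count was 8 for starts in control-only regions, 9 in any merged region, 12 in regions of all 5 lists and 7 over all promoters. By CG count, starts in control-only regions lay nearer to the average promoter of the table than to starts in regions of all 5 lists. By GC content they lay nearer to the latter, with medians of 56.3%, 58.3% and 52.7% in control-only regions, regions of all 5 lists and all promoters. Of the starts in control-only regions 5 (3.94%) had no CG, against 0.713% in regions of all 5 lists and 5.43% over all promoters. The observed over expected CG ratio had a median of 0.383 in control-only regions, 0.489 in regions of all 5 lists and 0.384 over all promoters. Among the starts printed above, Slc44a5 and Gabrq each had 23 CG in 300 bases, Sox11 and Yif1a 21, and Gpr176 20.

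Hairpins of miRNAs lay in 3 control-only regions. The share of all merged regions with a hairpin was not computed, so whether this count is particular to control-only regions was not tested. As an example, 1 mature arm of each region is printed, with the seed (bases 2 to 8) in capitals.
mmu-miR-130b-3p: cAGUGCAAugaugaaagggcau
mmu-miR-802-5p: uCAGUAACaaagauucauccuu
mmu-miR-341-5p: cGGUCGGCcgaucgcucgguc

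The region chr16:17123732-17126449 held the hairpins of miR-130b and miR-301b, had a summed signal of 64179 in control 1 and 57837 in control 2, and lay 692 bp from the nearest cKO peak. The region with miR-802, chr16:93368905-93371419, had 51020 and 33874, with the nearest cKO peak 10993 bp away. The region with miR-341 and miR-1188, chr12:109609061-109612847, belongs to the imprinted Dlk1-Dio3 domain, had 73575 and 58823, and lay 80576 bp from a cKO peak. The table matched 9 mature arms in these regions, and miR-301b-3p was not matched.

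The signal of these regions lay near the lower end of both control lists. Each deposited peak carries a summed signal over its bases and a maximum, and the lowest summed signal in a list, called its floor here, was 43076 in control 1 and 31758 in control 2. Control-only regions held 880 peaks of control 1, with a median of 1.24 times the floor against 1.70 for its other peaks, and 877 peaks of control 2, with 1.37 against 1.89. Under 2 times the floor lay 93.6% of these peaks in control 1, where 61.2% of the whole list did, and 81.5% in control 2, where 53.9% did. Among regions found in both controls, the control signal was higher the more cKO lists also held the region: the median over the floor in control 1 was 1.24 with 0 cKO lists, 1.41 with 1, 1.85 with 2 and 4.24 with 3. In control 2 it was 1.37, 1.87, 2.80 and 6.60. The median maximum followed the same order, from 74 to 121 in control 1 and from 51.5 to 102 in control 2. Merged regions in more lists were also wider, with medians of 3094, 4066, 5288 and 8497 bp, and a sum over bases grows with width. These values come from the lists that chose the regions and carry no test. A cKO library gives no value in a control-only region, since its list names only peaks, and absence from a list is not a signal of 0.

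**Figure D1:**
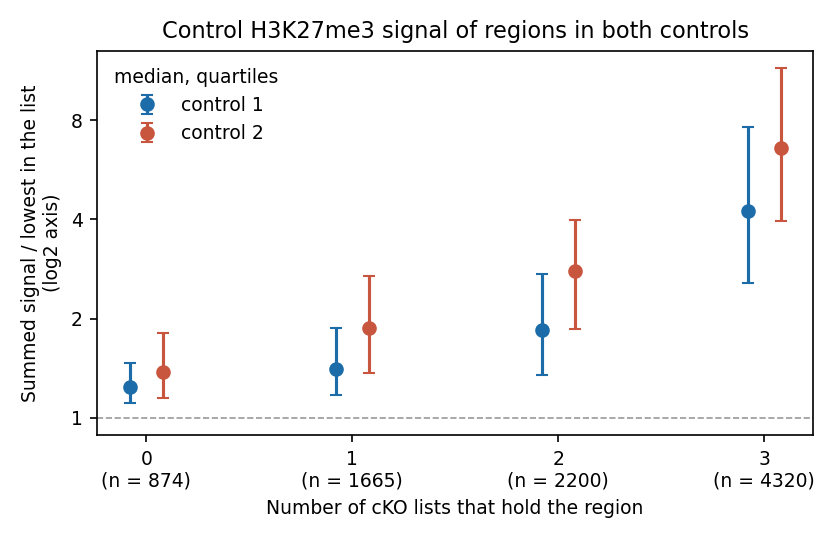
Summed H3K27me3 signal of regions in both controls, divided by the lowest summed signal of the same control list (log2 axis), by the number of cKO lists that also held the region; points are medians and bars the quartiles over regions. Control-only regions (0 cKO lists, n = 874) had medians of 1.24 and 1.37, against 4.24 and 6.60 for the 4320 regions in all 5 lists.

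The lists themselves were unequal. Control 1 and control 2 held 14545 and 18494 peaks covering 48.1 and 81.3 Mb, and cKO 1, cKO 2 and cKO 3 held 11118, 14584 and 15368 peaks covering 21.3, 30.3 and 70.1 Mb. By their file names 4 of the 5 libraries had been downsampled, and cKO 2 was not so described. Control 2 shared more bases with cKO 3 (Jaccard index 0.505) than with control 1 (0.422), so the closest pair of lists crossed the genotypes. The number of control-only regions moved with single libraries: a further 1233 regions were in both controls and in cKO 3 alone of the cKO lists, 306 in cKO 2 alone and 126 in cKO 1 alone. Without cKO 3 the rule kept 2260 regions, without control 1 it kept 5094, and without control 2 it kept 2635. Leaving out a list removes a condition of the rule, so these counts could not fall, and only their size depends on the library. With every list cut to the length of the shortest by summed signal it kept 414, which touched 208 of the 874 (23.8%). With only the upper 50% of each control list by maximum signal it kept 91. Both cuts drop peaks of low signal first. Of the peaks in control-only regions, 84.0% in control 1 and 76.3% in control 2 lay under the median summed signal of their list. By maximum signal, which set the upper 50%, their medians were also below those of the lists. They were 74 against 88 in control 1 and 51 against 61 in control 2. Part of these drops was thus built in, and the cuts do not isolate list length. The part of unequal list lengths in the full count was not tested. The opposite pattern, all 3 cKO lists and no control, held 33 regions, but it needs 3 lists where control-only regions need 2.

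The median width of control-only regions was near that of all merged regions, and few were very wide. Their widths ran from 667 to 10622 bp, with quartiles of 2443, 3094 and 3880 bp, and they covered 2.87 Mb. The quartiles were 2185, 3185 and 5235 bp for all merged regions, and the median was 8497 bp for regions in all 5 lists. A single region (0.114%) was wider than 10 kb, against 8.52% of all merged regions and 40.0% of regions in all 5 lists. Width is tied to the rule. Control-only regions join peaks of 2 lists, and regions in all 5 lists join peaks of 5. A wide region also has more room to touch a cKO peak and be left out. Part of these width differences was thus built in. In 865 of the 874 (99.0%) each control contributed 1 peak, and the control 2 peak was the wider in 600 (68.6%). The controls' maxima lay a median of 548 bp apart, and within 500 bp in 422 regions (48.3%). A median of 60.1% of a region's bases was covered by both controls, and in 573 regions (65.6%) more than 50% was.

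The distance from control-only regions to the nearest cKO peak varied widely. The nearest cKO peak was a median of 5323 bp away, within 1000 bp for 149 of the 874 regions, within 5000 bp for 429 (49.1%) and beyond 100 kb for 89 (10.2%). A region found in all 5 lists lay within 5000 bp of 153 (17.5%), and another control-only region within 10 kb of 62 (7.09%). These distances were not measured for other merged regions. Whether they are particular to control-only regions was not tested. At the edge of the rule, chr5:35498402-35501079 lay 19 bp from a cKO peak, chr8:110170967-110173240 lay 21 bp and chr11:3719328-3723702 lay 27 bp. Just outside it, a single cKO library covered 39 bp of control peak in chr2:26863052-26868770, 251 bp in chr17:31173605-31178390 and 335 bp in chr5:123877673-123880586.

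**Figure D2:**
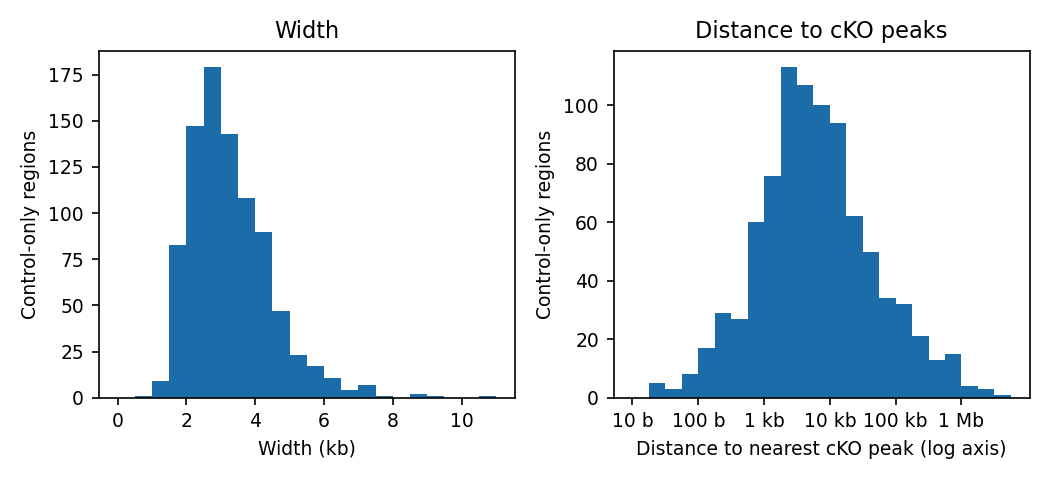
Histograms of the width of the 874 control-only regions (left, kb) and of their distance to the nearest peak of any cKO list (right, log axis). The median width was 3094 bp and the median distance 5323 bp, with 149 regions within 1000 bp of a cKO peak.

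Control-only regions were spread over all autosomes and the X chromosome in near proportion to the merged regions. Their share of merged regions ran from 2.82% on chromosome 7 (47 of 1665; exact Clopper-Pearson 95% interval 2.08 to 3.74) to 4.49% on chromosome 19 (30 of 668; 3.05 to 6.35), beside 3.71% over the genome. The X chromosome, which carries Kdm6a, held 5 of its 112 merged regions (4.46%; 1.47 to 10.1), and the Y chromosome 0 of 1. These intervals cover counting error only, and neighbouring regions are not independent.

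**Figure D3:**
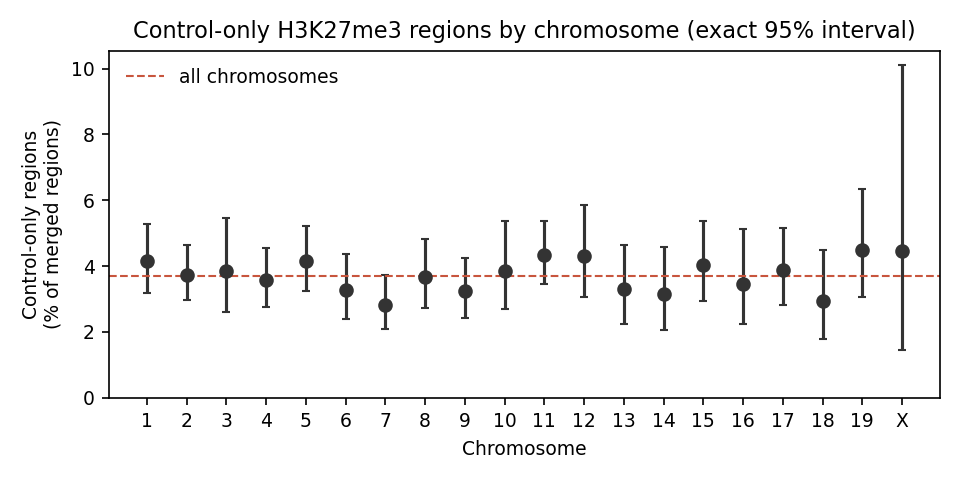
Control-only regions as a percent of merged H3K27me3 regions on each chromosome, with the exact 95% interval, and the value over all chromosomes as a dashed line at 3.71. The shares ran from 2.82% on chromosome 7 to 4.49% on chromosome 19, and the X chromosome, with 5 of 112 regions, had the widest interval.

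Few control-only regions held a gene start. Of the 854 on chromosomes with RefSeq starts in the table, 108 (12.6%) held a start, 449 (52.6%) overlapped a gene without its start and 297 (34.8%) overlapped none. The matching shares were 15.9%, 52.2% and 31.9% for all merged regions, and 38.6%, 44.1% and 17.3% for regions in all 5 lists. These shares count regions, and a wide region has more room for a start. By length the sets were closer, with 45.3 starts per Mb in control-only regions, 44.8 in all merged regions and 52.6 in regions of all 5 lists. A start lay within 5 kb but not inside in 134 regions, and the nearest was over 50 kb away for 151. In all 116 genes started in control-only regions, 72 protein-coding and 44 lncRNA genes. An IgG region, the background of the assay, overlapped 40 of the 874 (4.58%), against 5.12% of all merged regions and 17.7% of those in all 5 lists. The IgG shares also count regions and were not corrected for width.

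Families of developmental regulators, well known Polycomb targets, were listed by symbol: Hox, Pax, Sox, Gata, Fox, Tbx, Lhx, Nkx, Irx, Dlx, Msx, Wnt, Bmp, Fgf and the sine oculis homeobox genes such as Six2. Other regulators are outside this list, such as Atoh7, which starts in a control-only region, and Onecut1 and Zfhx3, which such regions overlap, all named after their values were seen. Of the 72 protein-coding genes that start in control-only regions 1 (1.39%) belonged to the listed families, against 110 of 2663 (4.13%) over all merged regions and 96 of 1343 (7.15%) in regions of all 5 lists. That gene was Sox11, an HMG-box transcription factor of neural development, whose start lay in chr12:27342573-27344876. This region had a summed signal of 55905 in control 1 and 33685 in control 2, held ATAC peaks in 4 of 5 libraries, and had its nearest cKO peak 807251 bp away. Counting genes overlapped anywhere, 5 of 410 protein-coding genes (1.22%) were in the listed families, against 200 of 5652 (3.54%) and 170 of 2583 (6.58%). Besides Sox11 they were Pax3 and Six2, transcription factors of neural crest and kidney progenitors, Wnt7a, a secreted ligand, and Fgf12, a member of the FGF family. The Pax3 region chr1:78168828-78173289 had 94249 in control 1 and 35308 in control 2. The Wnt7a region chr6:91387357-91390755 had 52198 and 87716, so the control with the higher deposited value differed. Deposited values may not share a scale between the controls. Of the germ-cell and meiosis list and of the Polycomb and demethylase list, 0 genes started in or overlapped a control-only region. Over all merged regions these lists were also scarce: 3 germ-cell genes (0.113%) and 1 Polycomb or demethylase gene (0.0376%) had their start inside, and 7 (0.124%) and 3 (0.0531%) were overlapped, so a count of 0 is close to the background. Examples of germ-cell genes outside those lists, named after their values were seen, were Dmrt1 and Ctcfl, each with 2 control-only regions and no start. Dmrt1 is a transcription factor of spermatogonia and Ctcfl a germ-cell paralog of Ctcf. Esrrb, looked up with them, also had 2, as did genes of other functions, so this was not particular to germ-cell genes. The Dmrt1 regions had 65144 and 34109 at chr19:25549458-25551481, and 73773 and 38972 at chr19:25553120-25555218, in controls 1 and 2. Those of Ctcfl lay 185 and 319 bp from a cKO peak, and those of Dmrt1 3495 and 7065 bp.

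The strongest region by maximum signal, chr8:50914955-50917498, held the start of the lncRNA 1700019L22Rik, with a maximum of 156 in control 1 and 121 in control 2 and the nearest cKO peak 2067286 bp away. The next, chr2:165394978-165396857 in the osteoclast fusion gene Ocstamp, had 205 and 66, so its rank came mostly from control 1. The Slc44a5 region chr3:153969702-153975839 had 130 and 123 over unequal peaks, 573 bp wide in control 1 and 6138 bp in control 2. The region chr10:119454135-119455863 lay 101 bp from a start of Grip1, which codes for a scaffold of glutamate receptors, with 141 and 108. In chr13:116293051-116294624, 15064 bp from Isl1, a LIM-homeodomain transcription factor, the maxima were 130 and 113, and a region of all 5 lists lay 852 bp away. The narrowest region of all, chr2:181918482-181919148 (667 bp), had 122 and 116 and overlapped an IgG region. The Gpr176 region chr2:118372431-118374368 had 157 and 69, the region in Ina, a neurofilament gene, chr19:47018801-47020369 had 145 and 80, the Arhgap36 region chrX:49493128-49496112 had 113 and 95, and chr18:75806071-75809045 had 128 and 79. In all 10 of these the higher maximum was that of control 1, whose list also had the higher median maximum (88 against 61).

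The widest regions were uneven between the controls. The widest of all, chr5:150118689-150129310 in Fry, which codes for a microtubule-binding protein, joined a 1173 bp peak of control 1 and a 9485 bp peak of control 2 that shared 0.339% of its bases, with maxima 6967 bp apart. The region chr4:137205138-137214434 joined peaks of 6531 and 6208 bp that shared 37.0%. In chr6:84374731-84383596, chr3:100975089-100983739 and chr15:87971043-87978749 the control 2 peak spanned the whole region and the control 1 peak was 1809, 2436 and 2555 bp wide. Requiring each control to cover at least 50% of a region kept 700 of the 874.

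On the X chromosome the 5 regions lay at Arhgap36, at the start of Gabrq, and in or beside Gm5126, Map7d2 and Cacna1f. The Gabrq region chrX:72824079-72826000 had a summed signal of 56550 in control 1 and 33181 in control 2, with the nearest cKO peak 160782 bp away. The Map7d2 region chrX:159416698-159418856, in a gene for a microtubule-associated protein, had 43128 and 42547 and lay 403 bp from a cKO peak. The region in Cacna1f, a calcium channel gene of the retina, chrX:7608451-7612325, had 50424 and 38530. The Gm5126 region chrX:102930938-102934022 had 65260 and 71320, and the Arhgap36 region 58231 and 69837. Control 2 had the higher deposited value in these 2. The floors of the lists differ (43076 in control 1 and 31758 in control 2), so deposited values do not rank the controls.

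The genes with the strongest regions at their start have unlike known functions. After 1700019L22Rik, Slc44a5 and Gpr176, the summed maximum of both controls was 194 at Stxbp6, which binds SNARE proteins, 188 at Atoh7, a transcription factor of retinal ganglion cells, 187 at the colipase-like gene Clpsl2 and 186 at Pnpla1, a lipid enzyme of the epidermis. It was 182 at Elavl2, which codes for an RNA-binding protein, 181 at both Robo2, an axon guidance receptor, and Gm39928, 179 at Tmem229a, 177 at both Glipr2 and Gm30377, and 176 at Hdgfl3. It was 175 at Plxnb2, a semaphorin receptor, and Gm42163, 173 at Gm34036, 172 at Yif1a, and 169 at Gabrq and Gm36794. Genes crossed by 3 control-only regions were long: Camta1 spanned 802 kb, Cdh23 394 kb, Grik3 224 kb, Pebp4 219.5 kb, Gadl1 192 kb, Susd4 133 kb and Gm36134 108 kb.

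ATAC-seq of the same kind of sorted cells, which the rule did not use, gave few open sites in control-only regions and a difference by genotype smaller than the spread between libraries. The deposited ATAC list labelled cKO 1 has peak names with the same prefix as the list of control 1, although its length and values differ, so values are also given without it. An ATAC peak lay in 5.84% of the 874 regions in control 1 (51 regions), 13.6% in control 2 (119), 5.49% in cKO 1 (48), 6.41% in cKO 2 (56) and 16.9% in cKO 3 (148). The control libraries lay inside the range of the cKO libraries. The mean was 9.73% ± 5.50 (SD, n = 2) in controls and 9.61% ± 6.36 (SD, n = 3) in cKO, a difference of -0.114 percentage points (two-sided exact permutation p = 1; a design of 2 against 3 libraries cannot go below 0.1). With cKO 1 left out it came to 1.95 points. The ATAC lists held 14635 to 40497 peaks, and the 2 longest lists, those of cKO 3 and control 2, gave the highest shares. In the same libraries the share over all merged regions was 9.31%, 21.6%, 6.00%, 9.92% and 26.4%, and over regions in all 5 lists 19.3%, 48.5%, 11.9%, 21.4% and 57.4%. Control-only regions were below both sets in 5 of 5 libraries. Their share was 62.7% and 63.0% of that over all merged regions in the controls, and 91.5%, 64.6% and 64.1% in cKO 1, 2 and 3 (difference 10.6 points, two-sided exact permutation p = 0.5). Without cKO 1 this difference was 1.51 points (exact permutation p = 0.333, the smallest that 2 against 2 libraries allow), so that library carried most of it. Regions in all 5 lists are wider, and a wide region has more room for a peak: by bases, ATAC peaks covered 0.983%, 2.35%, 0.867%, 1.10% and 3.51% of control-only regions, and 1.14%, 3.06%, 0.687%, 1.13% and 4.53% of all merged regions. In regions of all 5 lists they covered 1.06%, 3.51%, 0.601%, 1.11% and 5.35% of bases. By bases, control-only regions were thus below regions of all 5 lists in 4 of 5 libraries, closely so in control 1 and cKO 2, and above them in cKO 1.

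**Figure D4:**
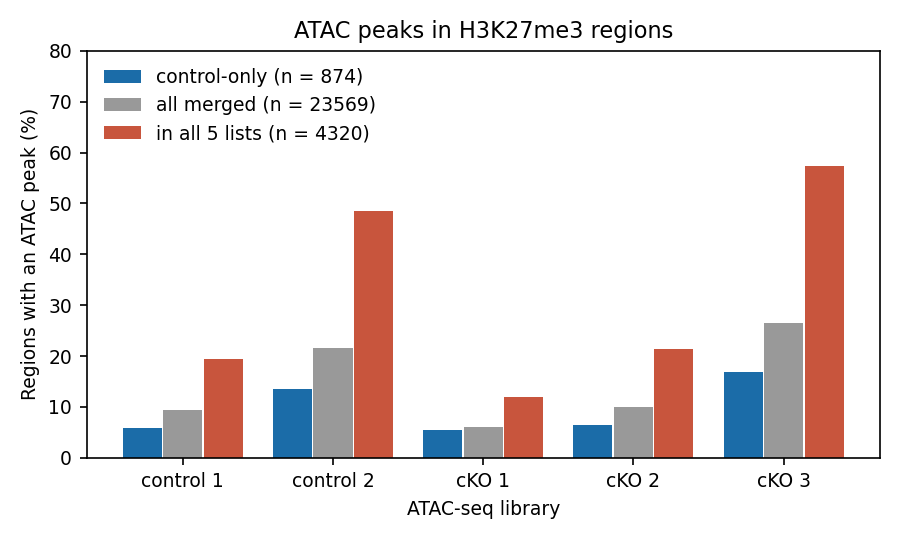
Percent of control-only regions, of all merged regions and of regions in all 5 H3K27me3 lists that overlap a deposited ATAC peak, in each of the 5 ATAC libraries (bars start at 0). Control-only regions were lowest in each library, from 5.49% in cKO 1 to 16.9% in cKO 3. The shares count regions and are not corrected for width.

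Of the control-only regions 685 (78.4%) had no ATAC peak in any library, against 68.5% of all merged regions and 35.8% of those in all 5 lists, and 17 (1.95%) had one in all 5. These shares count regions and were not corrected for width, and the sets were closer by bases covered, as given above. An ATAC peak in both controls and no cKO library was found in 0 of the 874, where 17 of 23569 merged regions (0.0721%) had this pattern. The reverse ATAC pattern was also found in 0 of the 874 and in 19 merged regions. At so low a background a count of 0 in 874 is close to the rate over all merged regions. The highest ATAC enrichment was at Yif1a, chr19:5087559-5088977, with fold values of 8.11 and 7.28 in the controls and 5.18, 6.64 and 7.55 in cKO 1, 2 and 3, so the cKO 1 value lay below the others. That region also overlapped an IgG region, the only one of the 17 to do so. Blvrb, a biliverdin reductase gene, chr7:27446643-27449181, had 7.46 and 5.65 against 5.68, 7.13 and 5.34, with overlapping groups. The shared start region of Syn2, a synaptic vesicle gene, and the lncRNA Gm17733, chr6:115132416-115135254, had 4.35 and 6.08 against 4.00, 5.90 and 6.03. Gpr176 had 3.53 and 4.40 against 4.33, 4.17 and 5.04. Away from gene starts, chr7:132427295-132432361 had 4.43 and 5.93 against 4.17, 5.33 and 5.70, and chr9:27191081-27193030 had 5.69 and 5.04 against 3.05, 4.10 and 6.23.

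RNA of the genes that start in control-only regions was read in single cells of whole testis, with 1 library per genotype and therefore no test. Barcodes with at least 3000 UMIs, at most 10% mitochondrial UMIs and at least 3 of 8 markers of differentiating spermatogonia numbered 471 in the control and 308 in the cKO library, with median UMIs of 8214 and 7470. RNA of several cell types lay in this gate. The spermatogonial markers, which defined it, summed to 980 and 1034 CPM (a gene's UMIs scaled to a common total per library) in control and cKO. Dmrtb1, the largest of them, had 348 and 385 CPM, below its 458 and 520 over all barcodes of at least 3000 UMIs, unlike the other markers of that list. Here and below, all barcodes of at least 3000 UMIs means those that also had at most 10% mitochondrial UMIs. Spermatid markers, led by Prm1, summed to 21858 and 19722, against 37206 and 36726 over all those barcodes, and pachytene markers to 654 and 697. The Leydig markers summed to 416 and 307, the Sertoli markers to 120 and 84.7, those of undifferentiated spermatogonia to 86.7 and 84.7 and those of macrophages to 1.18 and 0.805 CPM. Whether this RNA came from other cells or from free RNA was not tested, nor was its part in the ratios given next. Kdm6a gave 64 UMIs in the control (10.8 CPM, exact Poisson 95% interval 8.33 to 13.8) and 14 in the cKO library (3.75 CPM, 2.05 to 6.30). A 3′ tag may lie outside the deleted part, so these counts do not check the deletion. Of the 116 genes, 85 feature rows matched by symbol, 35 had at least 10 UMIs in the gates of both libraries together and 20 had 0.

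With 1 CPM added to each level, none of the 35 differed 2-fold between the libraries. This scale understates changes of genes with few UMIs. Of the 35, 0 were at least 2-fold higher in cKO, where 0.501% of all 16374 genes of that depth were, and 0 were at least 2-fold lower, where 1.31% were, so a count of 0 in 35 is close to both background rates. The median log2 ratio of cKO over control was -0.12 for the 35 genes and -0.03 for all genes, and 11 of the 35 (31.4%) lay above 0, against 46.2% of all genes. Over all barcodes of at least 3000 UMIs, 64 genes had enough UMIs and their median was -0.0020, beside -0.03 over all genes, and 32 of the 64 (50.0%) lay above 0, against 43.2% of all genes, so the order of members and all genes turned. The lowest ratio was that of Exph5, -0.98, from 12 and 2 UMIs, and the highest that of Mfsd13a, 0.37, from 6 and 6 UMIs. Sox11 had 12.3 CPM (9.67 to 15.5) in the control and 11.3 (8.12 to 15.2) in the cKO library, with overlapping intervals. Elavl2 had 51.2 (45.6 to 57.3) and 45.6 (39.0 to 53.0), also overlapping. These 2 genes stood far above their level in barcodes of at most 100 UMIs, which hold free RNA: 0.278 and 0.299 CPM for Sox11, 2.64 and 3.44 for Elavl2. Over all barcodes of at least 3000 UMIs they were at 0.723 and 0.615 CPM, and at 4.72 and 3.43. The gated barcodes thus held 73 of 95 Sox11 UMIs in the control and 42 of 60 in the cKO library, and 303 of 620 and 170 of 335 Elavl2 UMIs, though they were only 471 of 10988 and 308 of 8258 barcodes. Chl1, a cell adhesion gene, had 187 (176 to 198) and 154 (142 to 168) CPM in the gate, with intervals that did not overlap. It had 148 and 138 in free RNA, and 242 and 206 over all barcodes of at least 3000 UMIs. The part of free RNA in its gated level was not tested. Ttll6 had 54.9 (49.1 to 61.2) and 37.0 (31.1 to 43.7) in the gate, also without overlap. It had 39.8 and 31.3 in free RNA, and 65.2 and 48.4 over all barcodes of at least 3000 UMIs. These intervals cover counting error within 1 library of each genotype. Chl1 and Ttll6 were picked after their values were seen, and the share of all genes without overlap was not computed. Whether such a difference is particular to genes of control-only regions was therefore not tested. Yif1a had 37.9 and 45.1 CPM, against 50.4 and 48.9 in free RNA. Slc44a5 had 3.89 and 4.02, against 4.44 and 4.49. Gpr176 and Gabrq had 0 UMIs in both libraries, where the exact Poisson 95% interval reaches 0.623 CPM in the control and 0.989 CPM in the cKO library.

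**Figure D5:**
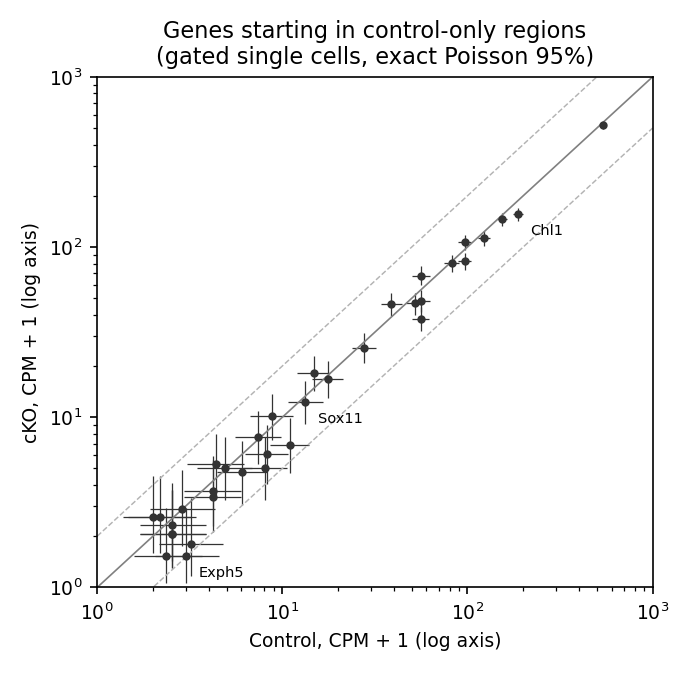
Level of the 35 genes that start in control-only regions and had at least 10 UMIs in gated barcodes, as CPM + 1 in the control (x) and cKO (y) library, both on log axes; bars are exact Poisson 95% intervals, the solid line marks equality and the dashed lines 2-fold. No gene lies beyond 2-fold, and Exph5, with a log2 ratio of -0.98, comes nearest.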

How the data were processed

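CUT&Tag and ATAC-seq peaks of sorted cKIT+ spermatogonia (mm10, per the submitters' processing notes) and single-cell RNA were used as deposited. The submitters' processing notes name cutadapt, Bowtie2, SAMtools, deepTools and SEACR for CUT&Tag, and cutadapt, Bowtie2 and MACS2 for ATAC-seq. The H3K27me3 lists give a summed and a maximum signal per peak as deposited by the authors, and how that signal was scaled across libraries was not found in the labels or headers; a threshold of 0.01 stands in the file names. The ATAC lists give a deposited fold enrichment (a ratio) and a −log10 q per peak, and the smallest deposited −log10 q is 1.304. The single-cell matrices hold UMI counts per gene and barcode, deposited by the authors without selection of cells; no doublet caller was run, 0 gated barcodes and 27 of at least 3000 UMIs were shared by the libraries. Peak depth is unknown.

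Peaks were merged and overlapped with pandas 2.3.3, numpy 2.4.6 and bedtools 2.31.1, and groups were compared by exact permutation over the 10 arrangements of 2 and 3 libraries; the merging step was tested on simulated lists. Gene starts, promoters and miRNAs came from RefSeq tables (GRCm38.p6), and starts on chromosome 18 were not used here. Regions named are the 10 strongest by summed maximum, the 5 widest, the 5 with the most ATAC enrichment and those on X; genes named by rule start in a region and belong to the listed families or are the 20 strongest. Genes at the named regions, family genes only overlapped, the genes with 3 regions, and Defb22, Dmrt1, Ctcfl, Esrrb, Onecut1, Zfhx3, Chl1, Ttll6, Exph5 and Mfsd13a fall outside that rule and were chosen after their values were seen. The members and lists were chosen with earlier results of these data known. The planned whole-testis RNA comparison was not run, because transcripts could not be paired with genes. Alternatives covered overlap, merging, list length, thresholds, IgG, each library left out and a replicate block.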

Additional observations from a re-analysis of the deposited data

How the results depend on the processing

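The count of control-only regions (874) was 700, 722 and 834 when each control had to cover at least 50% of the region, when peaks within 1000 bp were merged, and when regions overlapping IgG were left out. It moved to 445 when a cKO peak within 5000 bp counted, to 414 at equal list lengths and to 91 with only the upper 50% of each control list. The cuts to equal length and to the upper 50% drop weaker peaks first, and most control-only peaks lay low in the control lists. Leaving out 1 library, which removes a condition of the rule and cannot lower the count, gave 1004 to 5094. The IgG share (4.58%) moved to 2.70% when a cKO peak within 5000 bp counted, and without 1 library it ran from 0.785% to 5.80%. The ATAC difference of cKO minus control (-0.114 points) turned to 0.0572 with 50% of the ATAC peak required, 0.877 at equal ATAC list lengths, 1.23 after subtracting all merged regions and, chosen after seeing the data, 0.161 as percent of bases covered; leaving out 1 library gave -4.00 to 3.78. Exact p was 0.3 to 1 over these alternatives, and the cause of the turns was not tested. Same-numbered ATAC libraries gave no single sign (r of their deviations 0.323 for number 1 and -0.213 for number 2). The deviations of the 2 controls are exact negatives of each other, so this check says little about pairing. The numbers were not taken as pairs. With the replicate block, which uses only libraries 1 and 2 of each genotype, the difference was -3.78. That is by construction the value without cKO 3, so the block adds no separate result. Regions with ATAC peaks in both controls and no cKO library numbered 0, 2 at equal ATAC list lengths, and 0 to 16 without 1 library, which likewise cannot lower the count. The single-cell median (-0.12) was -0.10 at 1000 UMIs and, chosen after seeing the data, -0.0020 over all barcodes. The whole-testis alternatives were not run. Peak lists without depth do not show whether a cKO library had weak signal in these regions.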
